A study of Caenorhabditis elegans with 93 samples.

Results

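The genes described are 10 small RNA amplification genes of C. elegans, dcr-1, rde-4, rrf-3, drh-3, ekl-1, ego-1, rrf-1, mut-7, mut-15 and mut-16. They were chosen by name from the 27790 genes of the RNA-seq data, and all 10 were present. All 10 also had a row among the 8479 genes with antisense 22G-RNAs, and 38 of the 31618 regulatory elements of the ATAC-seq data lay within 2000 bp of one of them. Untreated animals of the N2 strain, the laboratory wild type, were kept as lineages A, B and C, each carried on by 2 hermaphrodites per generation. Embryos, collected by bleaching, gave polyA RNA-seq, small RNA-seq and ATAC-seq libraries at alternate generations from 2 to 20 (28 libraries per data type) and in the pre-mutation-accumulation (PMA) generation, called generation 0 (3 libraries per data type). A library is named by its lineage and generation, so that C2 is generation 2 of lineage C, and each lineage and generation has 1 library per data type. B4 was not analysed here, nor was C14 in the RNA-seq and small RNA-seq data or C8 in the ATAC-seq data.

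In C. elegans, double-stranded RNA is cut by Dicer, and the products load a first Argonaute protein that marks a target mRNA. RNA-dependent RNA polymerases (RdRPs) then copy the marked mRNA into secondary small RNAs, the 22G-RNAs, which start with a guanosine and are antisense to the mRNA they are made from. In the germline much of this amplification is assigned to perinuclear Mutator foci, and 22G-RNAs can pass to the offspring. The 10 genes encode the cutting step, the polymerases with their partners, and parts of the foci.

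All values are normalised read counts, meaning reads divided by the size factor of the library. The read numbers below are sums over the listed genes or elements, not all reads sequenced. RNA-seq libraries held 42039288 to 48158015 reads in later generations and 43661492 to 49318096 reads in generation 0. The 22G-RNA libraries held 106897 to 1504610 reads in later generations and 1008367 to 1611500 in generation 0, and A4 was the shallowest. The ATAC-seq libraries held 2995631 to 12251653 reads in later generations and 7625441 to 9472742 in generation 0. As a check of the embryo label, 15 genes of late embryo differentiation summed to 477079 to 709392 in later libraries and 403429 to 481468 in generation 0, while 10 sperm genes summed to at most 83.8 in later libraries and 54.2 in generation 0. The 7 genes of adult hermaphrodite soma summed to 1905 to 3043 in later libraries and 2668 to 3606 in generation 0. Most of this sum was vit-1, with a median of 2410 in later libraries and 2635 in generation 0. The rest had medians in later libraries from 1.87 for col-19 to 56.4 for vit-3.

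In 5 RNA-seq libraries, A4, C0, C2, C4 and C10, long transcripts were low across the genome. The balance compared here is the median log2 deviation of 636 genes with transcripts of at least 4000 bp minus that of 5980 genes with transcripts of at most 1500 bp, with the 10 genes left out. It was -0.95 in A4, -0.98 in C0, -1.29 in C2, -0.60 in C4 and -0.51 in C10, against -0.41 to 0.30 in the other 26 libraries. The limit of -0.5 was set after the values were seen, and the libraries just outside it were C20 at -0.41 and B10 at -0.39. Because C0 is 1 of the 3 generation 0 libraries and 4 of the 5 belong to lineage C, the mRNA results are given with and without these libraries. What set the balance was not tested.

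The 10 mRNAs differed widely in level. Per kb of transcript, averaged over all 31 libraries, rde-4 was highest at 2486 normalised counts per kb and ego-1 lowest at 100.01. Between them lay mut-16 at 1346, dcr-1 at 918, mut-15 at 856, ekl-1 at 766, rrf-1 at 713, mut-7 at 591, drh-3 at 492 and rrf-3 at 346 normalised counts per kb. Of the 10 genes, rrf-3 alone overlaps another annotated gene, T05C12.11 on the opposite strand, and no strand is stated for the counting, so its reads cannot be told apart from those of T05C12.11.

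The cutting step is represented by dcr-1 and rde-4. dcr-1 (WBGene00000939, chrIII:8071967-8080281, minus strand, WBcel235) encodes Dicer, the nuclease that cuts double-stranded RNA, and has a transcript of 5883 bp. Its mRNA ranged from 442 to 8722 in the 28 later libraries, with a median of 5900, and was 6154 in A0, 8985 in B0 and 2114 in C0. The 4 later libraries low in long transcripts held 442 (C2), 2209 (C4), 1833 (C10) and 2014 (A4), below every one of the other 24 later libraries, which began at 4265. The groups overlap, since C0 lies below most later libraries while B0 lies above all of them.

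rde-4 (WBGene00004326, chrIII:10217302-10218646, minus strand) encodes a double-stranded RNA binding protein that works with Dicer, and its transcript of 1204 bp is the shortest of the 10. Its mRNA was 2366 to 3294 in later libraries, with a median of 2883, against 3760 in A0, 4435 in B0 and 4300 in C0. Every later library lay below every generation 0 library, also in the 4 later libraries low in long transcripts (2460 to 2975).

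**Figure D1:**
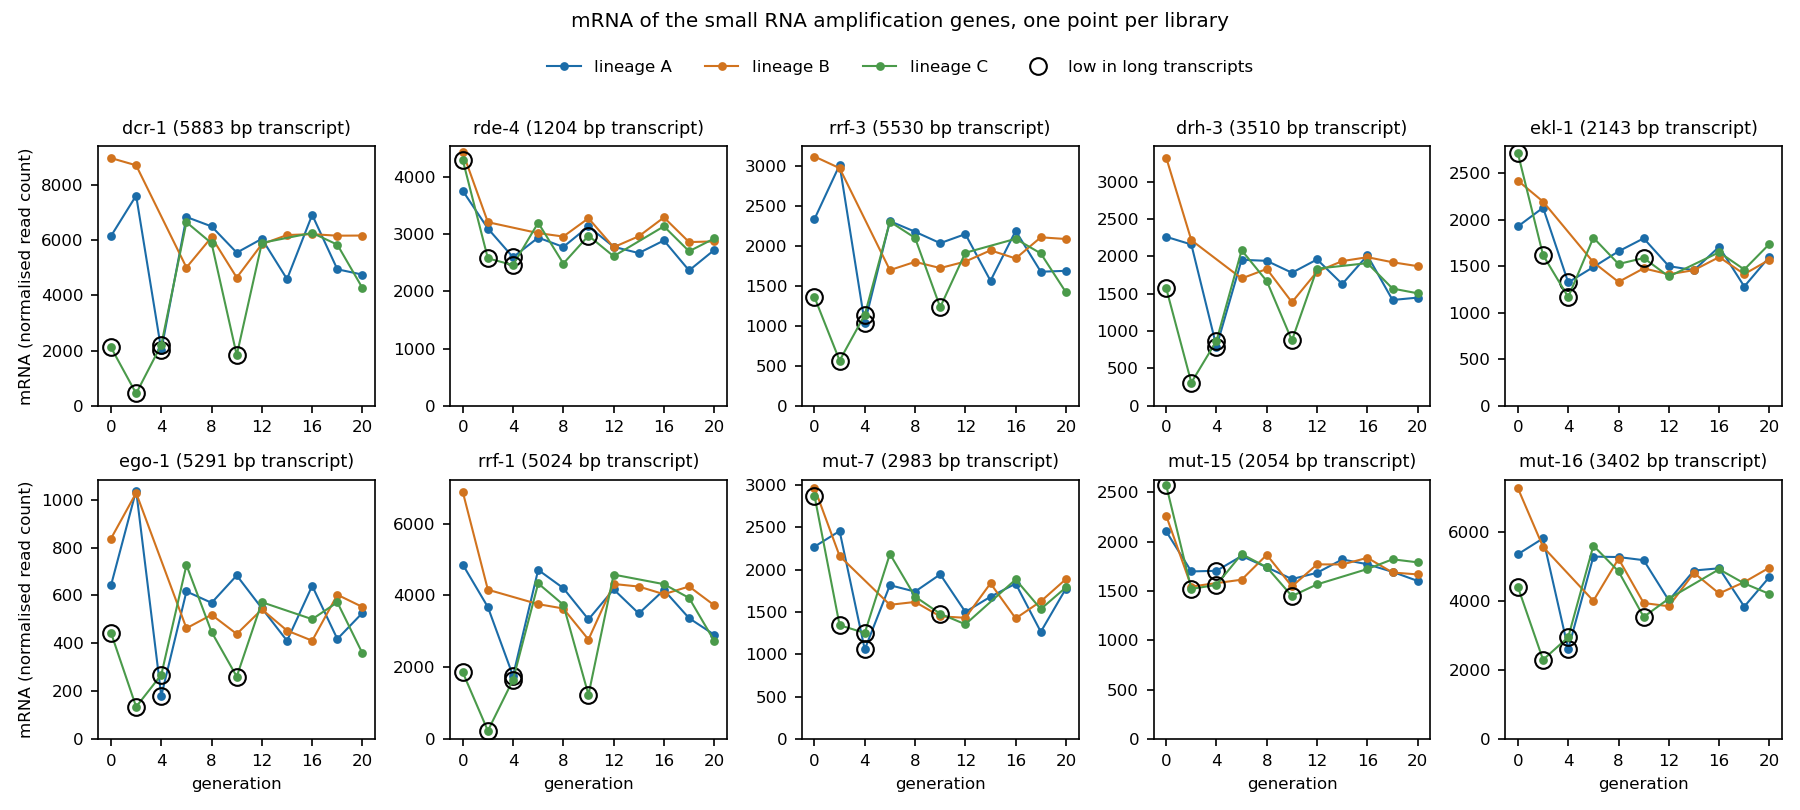
mRNA of the 10 genes in normalised read counts (vertical axis, from 0) by generation (horizontal axis), with 1 point per library, a coloured line per lineage and black rings on the 5 libraries low in long transcripts. In the panels of dcr-1 and rrf-1 the ringed libraries lie far below the rest. In that of drh-3 the ringed later libraries do, but the ringed C0 lies among the other libraries. In those of rde-4 and mut-15 all later libraries sit below the 3 generation 0 values.

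The 3 polymerases of the set are rrf-3, ego-1 and rrf-1. rrf-3 (WBGene00004510, chrII:8162465-8168649, plus strand, transcript of 5530 bp) makes primary small RNAs of the ERI pathway, and its mRNA was 565 to 3015 in later libraries, with a median of 1911, against 2336 in A0, 3121 in B0 and 1360 in C0. ego-1 (WBGene00001214, chrI:7650414-7656338, minus strand, 5291 bp), the germline polymerase, had 135 to 1038 in later libraries, with a median of 523, against 642 in A0, 837 in B0 and 444 in C0. For both genes A2 and B2 were the highest later libraries, with ego-1 at 1038 in A2 and 1028 in B2, above all other 29 libraries.

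rrf-1 (WBGene00004508, chrI:7643430-7649777, minus strand, 5024 bp), the polymerase that acts in the soma and in Mutator foci, lies next to ego-1 on the same strand. Its mRNA was 232 to 4709 in later libraries, with a median of 3747, against 4858 in A0, 6885 in B0 and 1859 in C0. The lowest value, 232 in C2, was 0.125 of that in C0, a lower ratio of C2 to C0 than for the other 9 mRNAs. In lineages A and B all later libraries, 10 and 9, lay below their own generation 0, whereas in lineage C 3 of 9 did. C0, the reference for lineage C, is itself one of the libraries low in long transcripts.

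drh-3 and ekl-1 encode partners of the polymerases. drh-3 (WBGene00008400, chrI:7820831-7826433, plus strand, 3510 bp), a Dicer-related helicase, had 309 to 2218 in later libraries, with a median of 1815, against 2263 in A0, 3326 in B0 and 1574 in C0. ekl-1 (WBGene00009052, chrI:7095486-7098406, plus strand, 2143 bp), a Tudor domain protein, had 1167 to 2192 in later libraries, with a median of 1531, against 1926 in A0, 2418 in B0 and 2710 in C0. Apart from A2 (2127), every later ekl-1 value lay below generation 0 of its own lineage, 27 of 28 in all. For drh-3 it was 24 of 28, the exceptions all in lineage C, whose reference C0 is itself low in long transcripts.

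The Mutator genes are mut-7, mut-15 and mut-16. mut-7 (WBGene00003504, chrIII:9539031-9542380, minus strand, 2983 bp), an exonuclease, had 1058 to 2454 in later libraries, with a median of 1652, against 2270 in A0, 2964 in B0 and 2872 in C0. mut-15 (WBGene00011323, chrV:15002543-15005067, plus strand, 2054 bp), a component of the foci, had 1449 to 1876 in later libraries, with a median of 1703, against 2105 in A0, 2265 in B0 and 2573 in C0. mut-16 (WBGene00003508, chrI:10080159-10085777, plus strand, 3402 bp), the scaffold on which the foci form, had 2302 to 5827 in later libraries, with a median of 4632, against 5367 in A0, 7280 in B0 and 4413 in C0. The mut-15 groups do not overlap, those of mut-7 overlap through A2 (2454), and those of mut-16 overlap over much of their range.

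The comparison of later generations with generation 0 asks whether the mRNA level moved once the lineages were bottlenecked. With all 31 libraries 4 of the 10 mRNAs fell and none rose, against 21.9% of 16714 genes called lower (limma, adjusted p under 0.05). On recovered whole reads edgeR and DESeq2 called the same 4, and 6609 and 6987 genes in all, where limma called 6626. rde-4 fell by 0.54 on the log2 scale (SE 0.08, adjusted p = 7.32e-06), mut-15 by 0.44 (SE 0.08, adjusted p = 3.51e-05), ekl-1 by 0.58 (SE 0.13, adjusted p = 0.000488) and mut-7 by 0.71 (SE 0.16, adjusted p = 0.00067). The largest of these, mut-7, was at 0.610 of generation 0. The other 6 were also below 0 in log2 change but did not pass, from -0.03 (SE 0.48, adjusted p = 0.964 by limma) for dcr-1 to -0.55 (SE 0.32, adjusted p = 0.178) for drh-3. The median log2 change was -0.41 over the 10 genes and 0.02 over all genes tested. The lineages are 3, and nothing in the labels gives separate cultures within one, so the p-values measure the spread between these libraries.

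Without the 5 libraries low in long transcripts, an alternative chosen after seeing the data, 7 of the 10 mRNAs were lower by the same test, against 16.1% of all genes. C0 is among the 5, so with lineage as a block the change in this fit rests on A0 and B0. Lineage C then has no generation 0 library to be compared with. To the 4 above this fit added rrf-1 at -0.61 (SE 0.16, adjusted p = 0.0052), drh-3 at -0.60 (SE 0.14, adjusted p = 0.0031) and mut-16 at -0.41 (SE 0.14, adjusted p = 0.0261). dcr-1 (-0.32, adjusted p = 0.174), rrf-3 (-0.43, adjusted p = 0.0791) and ego-1 (-0.39, adjusted p = 0.283) did not pass in limma. With all 31 libraries and the balance of long and short transcripts as a covariate, also chosen after seeing the data, 10 of 10 were lower, against 25.1% of all genes, between -0.47 for mut-15 and -0.93 for drh-3. Without lineage C, which holds 4 of the 5 libraries, 6 were lower, against 12.2% of all genes, and these were the first 4 with drh-3 and rrf-1.

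**Figure D2:**
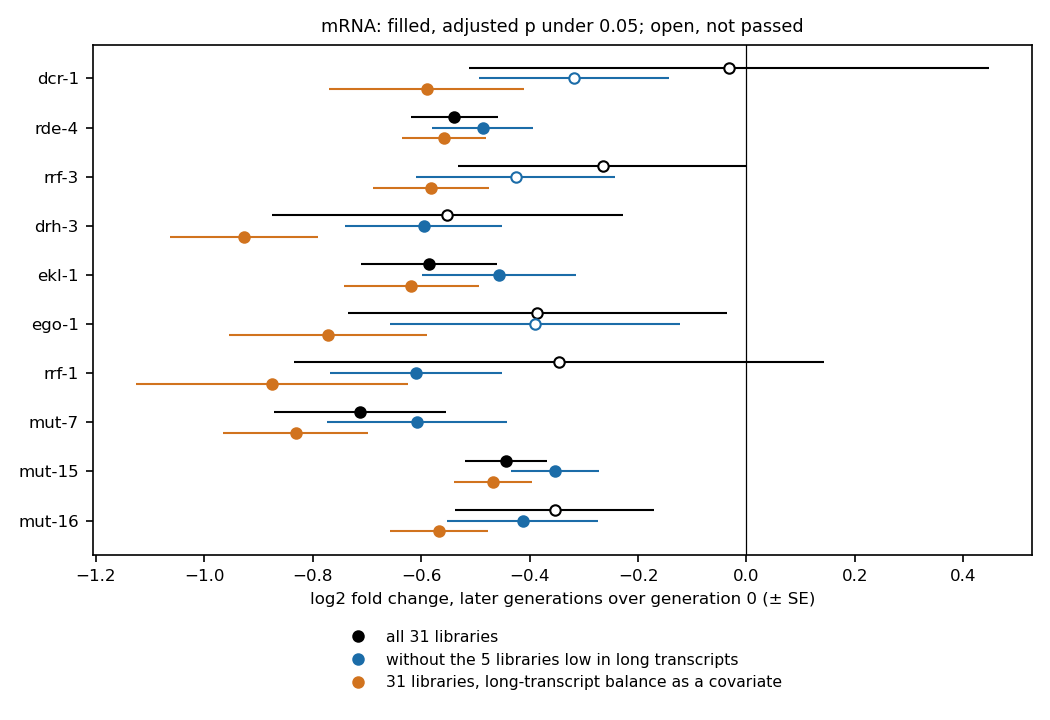
Log2 fold change of mRNA in later generations over generation 0 (horizontal axis, ± SE) for each gene (vertical axis), with all 31 libraries (black), without the 5 libraries low in long transcripts (blue) and with the balance as a covariate (orange). Filled points passed an adjusted p of 0.05 and number 4, 7 and 10, and every point lies below 0. The blue fit has no generation 0 library of lineage C, so its changes rest on A0 and B0.

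Markers of embryo stage moved between the same groups. The summed count of 20 germline and maternal genes was 44724 to 84409 in later libraries, with a median of 54795, against 76324 in A0, 99993 in B0 and 133786 in C0, and 19 of the 20 had a lower median in later generations. The 10 early zygotic genes summed to 3184 to 7030 in later libraries and 5207 to 9251 in generation 0, and 10 of 10 had a lower median in later generations. Of the 15 late differentiation genes, 12 had a higher median in later generations. The part of embryo stage in the fall of the 10 mRNAs was not tested, and in whole embryos fewer cells of a type and less RNA per cell cannot be told apart.

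The 5 libraries were picked because long transcripts were low relative to short ones. A ratio that falls from the shortest to the longest genes therefore follows from that choice and is not a separate result. Genes between 1500 and 4000 bp, and the genes of the set, did not enter the balance. The ratios by length are given as a description of the 5 libraries. In the 4 later libraries among them, the median was 0.316 of that in the other 24 later libraries for dcr-1, 0.362 for rrf-1, 0.406 for ego-1, 0.448 for drh-3, 0.546 for rrf-3 and 0.575 for mut-16, and for these 6 genes the libraries did not overlap. The ratio was 0.759 for mut-7, 0.890 for rde-4, 0.890 for mut-15 and 0.950 for ekl-1, with overlap. The share of all genes, or of genes of like length, without overlap is not given here. The count of 6 therefore describes these libraries and is not a result about the set. Over all protein-coding genes with a mean count of at least 100, the median ratio was 1.14 for the 5981 genes up to 1500 bp, 0.971 up to 2500 bp, 0.861 up to 4000 bp, 0.735 up to 5000 bp and 0.564 for the 333 genes above that. As a description, drh-3 stood at percentile 3.45 of the 1479 genes of its length class, whose upper limit is 4000 bp, whereas rrf-3 stood near the middle of its length class, at percentile 47.7.

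**Figure D3:**
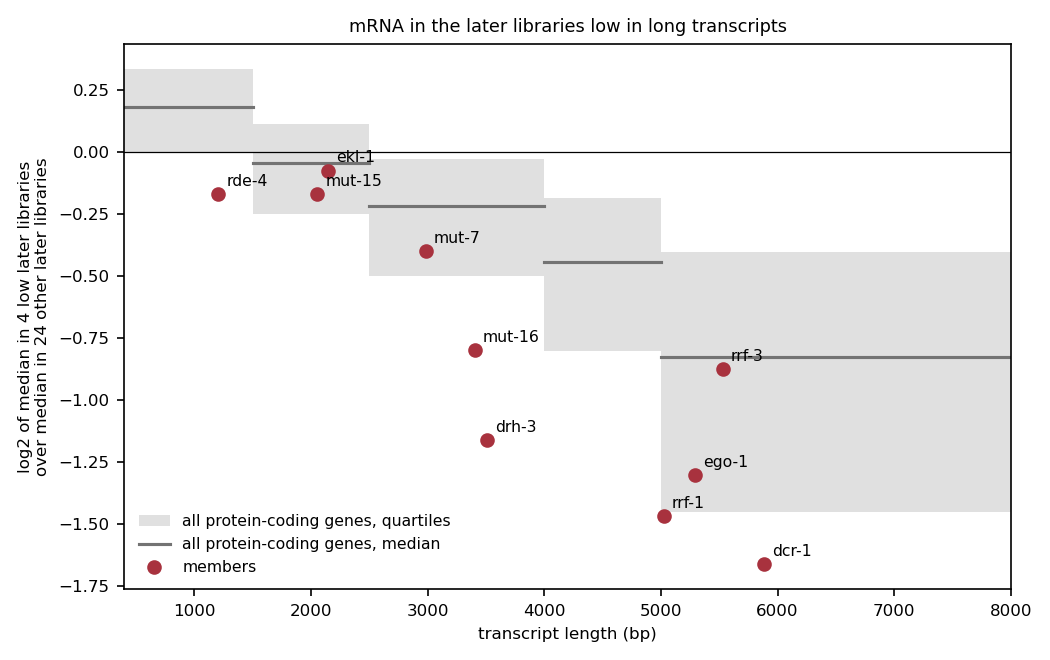
Log2 ratio of the median mRNA in the 4 later libraries low in long transcripts over the median in the other 24 later libraries (vertical axis) against transcript length in bp (horizontal axis), with grey bands for the quartiles and lines for the medians of all protein-coding genes by length class. The 10 genes (red) run from -0.07 for ekl-1 to -1.66 for dcr-1, and the medians of all genes from 0.18 to -0.83. The fall of these medians from the shortest to the longest class follows from how the low libraries were chosen.

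Inside the 26 other libraries the balance was also set beside each of the 10 mRNAs, without subtraction of lineage means. The balance is itself made from long transcripts of these libraries, so a positive r for a long mRNA is partly built in. The share of all genes, or of long genes, that pass the same test is not given here. The relations are therefore a description and not a trait of the set. Over these, dcr-1 mRNA and the balance had r = 0.725 (permutation p = 3e-05 over 100000 draws within lineages, two-sided, adjusted p = 0.0003 over 10 genes) and rho = 0.758, and r was 0.611 without B10 and C20, the libraries farthest from the median balance. rrf-3 had r = 0.610 and rho = 0.613 (adjusted p = 0.0057, permutation test), and ego-1 r = 0.530 and rho = 0.464 (adjusted p = 0.0211, permutation test). mut-16 (r = 0.497, rho = 0.566) and drh-3 (r = 0.452, rho = 0.521) passed by both measures, with adjusted p = 0.0126 and adjusted p = 0.0202 for rho (permutation test), and without B10 and C20 r was 0.409 for mut-16 and 0.261 for drh-3. rrf-1 passed by r (0.464) but not by rho (0.332, adjusted p = 0.171, permutation test), and its r was 0.148 without B10 and C20, so that its relation rests on those libraries. mut-7, ekl-1, mut-15 and rde-4, the genes with the 4 shortest transcripts, had r between -0.12 and 0.26 and did not pass.

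The 10 mRNAs varied together to very different degrees. Over all 31 libraries dcr-1 had r = 0.134 with ekl-1, 0.212 with mut-15 and 0.226 with rde-4. With rrf-3 it had 0.946 and with drh-3 0.949. No r for pairs of other genes is given here, so joint variation particular to the set cannot be told. As a description over libraries that share depth scaling and the balance above, the 45 pairs had Pearson's r between 0.100 (rrf-1 with ekl-1) and 0.971 (rrf-1 with dcr-1), with a median of 0.597, over all 31 libraries. Over the 26 other libraries r ran from 0.104 (mut-15 with ego-1) to 0.933 (rrf-3 with dcr-1), with a median of 0.691. The genes outside the set with the profile most like the mean of the 10, over 31 libraries and 16714 genes, were hcp-2 (r = 0.992), F33H1.4 (0.987), swsn-7 (0.987), rha-1 (0.986) and F52B5.3 (0.986), with transcripts of 4018, 4541, 4384, 4029 and 4509 bp. Over the 26 libraries their r with the same mean was 0.947 to 0.967.

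The slope over generations 2 to 20 asks whether the level drifted after generation 0. None of the 10 mRNAs passed in limma, against 0.0239% of all genes (4 of 16714). None had an unadjusted p under 0.05 in limma, edgeR or DESeq2, where limma had 2661 of all 16714 genes. The largest slopes were those of rrf-1 at 0.47 log2 units per 10 generations (SE 0.26, adjusted p = 0.365) and dcr-1 at 0.40 (SE 0.26, adjusted p = 0.424). Both reversed without the 5 low libraries, 3 of which are the early libraries A4, C2 and C4, to -0.12 and -0.22. In that fit no gene of the 10 passed, although 7 had an unadjusted p under 0.05, against 21.6% of all genes, and the steepest were ego-1 at -0.39 (adjusted p = 0.0686) and rrf-3 at -0.27 (adjusted p = 0.0592), the genes that were high in A2 and B2. Between lineages, over generations 2 to 20, none of the 10 mRNAs passed in limma, edgeR or DESeq2, against 0.0538% of all genes called by limma. None had an unadjusted p under 0.05 either, where limma had 1913 of 16714 genes.

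Other genes of the pathway were read from 5 lists of 38 measured genes. Of these, 22 fell and 1 rose in later generations with all libraries, against 21.9% of all genes lower and 17.7% higher, and without the 5 libraries 19 were lower and 1 higher. Among factors of the Mutator foci and secondary small RNAs, 9 of 13 fell (median log2 change -0.41), with mut-14, a helicase, at -0.91, nyn-1, of the NYN nuclease family, at -0.93 and rde-8, a nuclease, at -0.64. The call of nyn-1 was lost without the 5 libraries (-0.08, adjusted p = 0.715 by limma), and the list then had 4 lower. Of the ERI complex and its partners, 5 of 7 fell (median -0.49), with eri-5 at -0.71, eri-1, an exonuclease, at -0.65 and eri-3 at -0.51.

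Of the genes for end modification, Z granules and inheritance, 6 of 9 fell (median -0.57). The largest changes were those of henn-1, the methyltransferase of small RNA ends, at -0.87, pid-2, of the Z granule, at -0.70 and hrde-1, the nuclear Argonaute of the germline, at -0.68. Of the helicase and polymerase partners, 2 of 4 fell, elli-1 at -0.95 and the Argonaute csr-1 at -0.70. The systemic RNAi genes differed in direction, with none of 5 lower and sid-2, a transporter of double-stranded RNA in the gut, higher at 0.86 (554 to 799 in later libraries, against 392 in A0, 291 in B0 and 403 in C0).

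The 22G-RNAs antisense to the 10 genes stood between percentile 54.1 (ekl-1) and percentile 90.6 (rrf-1) of the 8479 genes with 22G-RNAs, by their mean. In later libraries rrf-1 had 102 to 213 (median 157), against 123 in A0, 116 in B0 and 154 in C0, and was the highest of the 10 by its mean. At the low end, ekl-1 had 13.9 to 46.7 (median 25.2) in later libraries, against 31.6 in A0, 32.1 in B0 and 27.7 in C0. The values rest on few reads, down to 5 for dcr-1 and 5 for ekl-1, both in A4.

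drh-3 had the most variable 22G-RNAs. They were 59.1 to 302 in later libraries, with a median of 135, against 187 in A0, 87.7 in B0 and 169 in C0. The highest later values were 302 in C4 and 255 in C10, and the lowest was 59.1 in A4, on 8 reads. The coefficient of variation over later libraries was 39.9% for drh-3, where counting error alone gives 9.31%, and 12.6% for dcr-1, where counting error alone gives 16.3%. For the other 8 genes it was between 1.24 and 1.86 times the counting error.

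Later generations did not differ from generation 0 in the 22G-RNAs of any of the 10 genes by limma, edgeR or DESeq2, against 1.23% of 6180 genes called by limma. The largest log2 changes were 0.33 for mut-15 (SE 0.19, adjusted p = 0.702) and 0.26 for rrf-1 (SE 0.17, adjusted p = 0.767) by limma. mut-15 had 64.6 to 134 in later libraries (median 104), against 81.8 in A0, 84.5 in B0 and 74.9 in C0, and 23 of 28 later values were above generation 0 of the lineage. At unadjusted p under 0.05, limma and edgeR had none of the 10 and DESeq2 had 1. Over all genes limma had 539 of 6180 at that limit, edgeR 672 of 6180 and DESeq2 733 of 6174. No gene of the 10 passed for a slope (0.291% of all genes by limma) or a difference between lineages (9.09% of all genes).

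**Figure D4:**
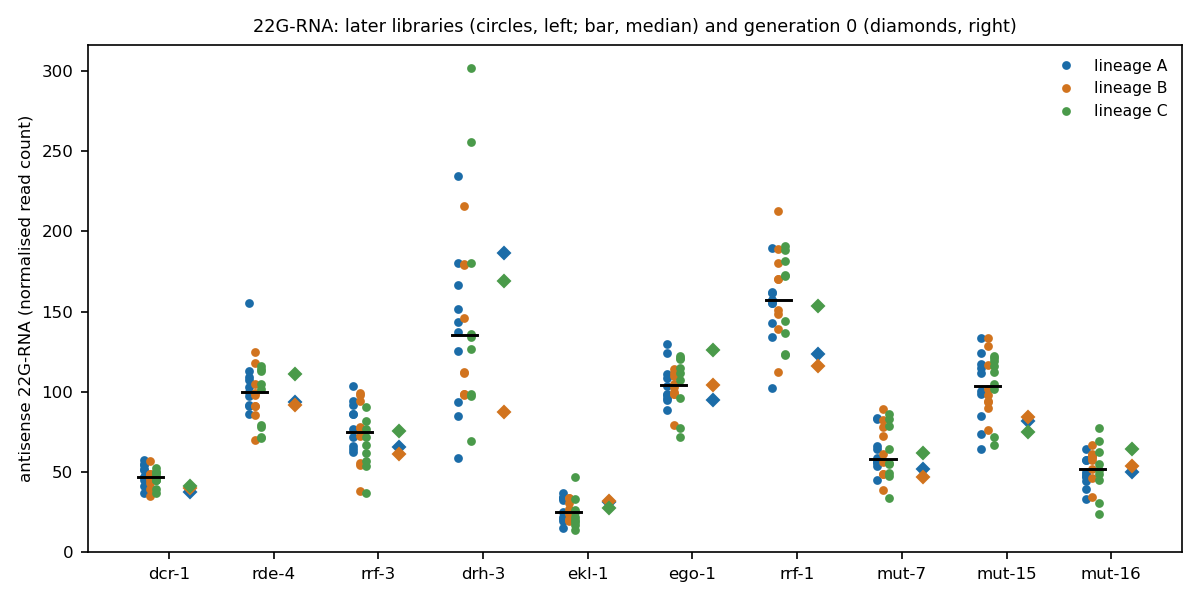
Antisense 22G-RNA of each gene in normalised read counts (vertical axis, from 0), with circles for the 28 later libraries on the left, a bar at their median, diamonds for the 3 generation 0 libraries on the right, and a colour per lineage. The groups overlap for all 10 genes, and the later circles of drh-3 spread from 59.1 to 302.

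The 38 elements near the 10 genes are 150 bp windows with mean accessibility between 17.6 and 712 normalised counts, and their median of 89.2 lies below that of all elements, 118. For 18 of the 38 the nearest gene start is that of one of the 10 genes, and the element at chrI:7649971-7650121 counts for both ego-1 and rrf-1. None of the 38 passed for later generations against generation 0 by limma (0% of 31498 elements) or edgeR, and 4 had an unadjusted p under 0.05, against 11.4% of all elements. DESeq2 called 2, both lower and both near mut-15, against 1.09% of all elements. None passed for a slope (0.00317% of all elements) or a difference between lineages (0% of all elements), by limma, edgeR or DESeq2, where limma had 2 and 1 at an unadjusted p under 0.05. Over all 31498 elements limma had 1706 and 1992 at that limit.

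The elements with an unadjusted p under 0.05 lie near mut-7 and mut-15. They are 4 of the 38, near the share of 11.4% over all elements, and are given as a description. The element nearest the mut-7 start, chrIII:9542599-9542749, whose centre is 294 bp upstream, had 29.4 to 61.8 in later libraries (median 41.7), against 14.8 in A0, 32.3 in B0 and 30.8 in C0, a log2 change of 0.73 (SE 0.20, adjusted p = 0.145 by limma). A0 was the lowest of all 31 values, the groups overlap, and 26 of 28 later values were above generation 0 of the lineage. Near mut-15, chrV:15001695-15001845 had 104 to 207 in later libraries, against 245 in A0, 252 in B0 and 212 in C0, so that the groups do not overlap (log2 change -0.49, SE 0.14, adjusted p = 0.153 by limma, adjusted p = 0.0228 by DESeq2). The second, chrV:15000780-15000930, had a log2 change of -0.40 (adjusted p = 0.207 by limma, adjusted p = 0.0174 by DESeq2). A further mut-15 element, chrV:15000398-15000548, had a log2 change of -0.24 (adjusted p = 0.360 by limma). The start nearest to the first is that of fib-1, and to the second and the further element that of rps-16. The element over the mut-15 start itself, chrV:15002515-15002665, had a log2 change of 0.14 (SE 0.16). The elements nearest the starts of the other genes had log2 changes from -0.19 (SE 0.19) for ego-1 at chrI:7656533-7656683 to 0.55 (SE 0.29) for drh-3 at chrI:7820640-7820790. Between these lay rrf-1 at -0.13 (chrI:7649971-7650121), ekl-1 at 0.11 (chrI:7095297-7095447), rde-4 at 0.15 (chrIII:10218686-10218836), rrf-3 at 0.28 (chrII:8162365-8162515), mut-16 at 0.30 (chrI:10079589-10079739) and dcr-1 at 0.30 (chrIII:8080307-8080457), and none passed.

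The study called changes by a Z-score. It is computed here by regressing each log2 ratio to the PMA library on mean count and standardising the residual, and calls use the cut-off of the study. The calls give no test, and all values of a lineage share its 1 generation 0 library. Among mRNAs, 1 of 280 values passed, rrf-1 in C2 at -2.68, against 4.75% of all mRNA values. Among 22G-RNAs none of 280 passed, against 3.93%. Among elements 52 of 1064 did, 34 higher and 18 lower, in 19 of the 38 elements, or 4.89% against 3.06% of all accessibility values.

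Of these 52 calls, 15 fall in a pair of elements. The element nearest the drh-3 start, chrI:7820640-7820790, passed upwards in 8 of the 9 later libraries of lineage C and in none of A or B. Its later values in lineage C were 23.3 to 67.7 and in A and B 17.6 to 68.0, against 15.05 in C0, 34.2 in A0 and 46.8 in B0, so that C0 is low and the later values of the lineages overlap. The mut-7 element at chrIII:9542599-9542749 passed upwards in 7 of 10 later libraries of lineage A, where A0 was the low value, and in none of B or C. Across lineages the 2 elements did not pass the F test (adjusted p = 0.829 for drh-3 and adjusted p = 0.925 for mut-7, limma).

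**Figure D5:**
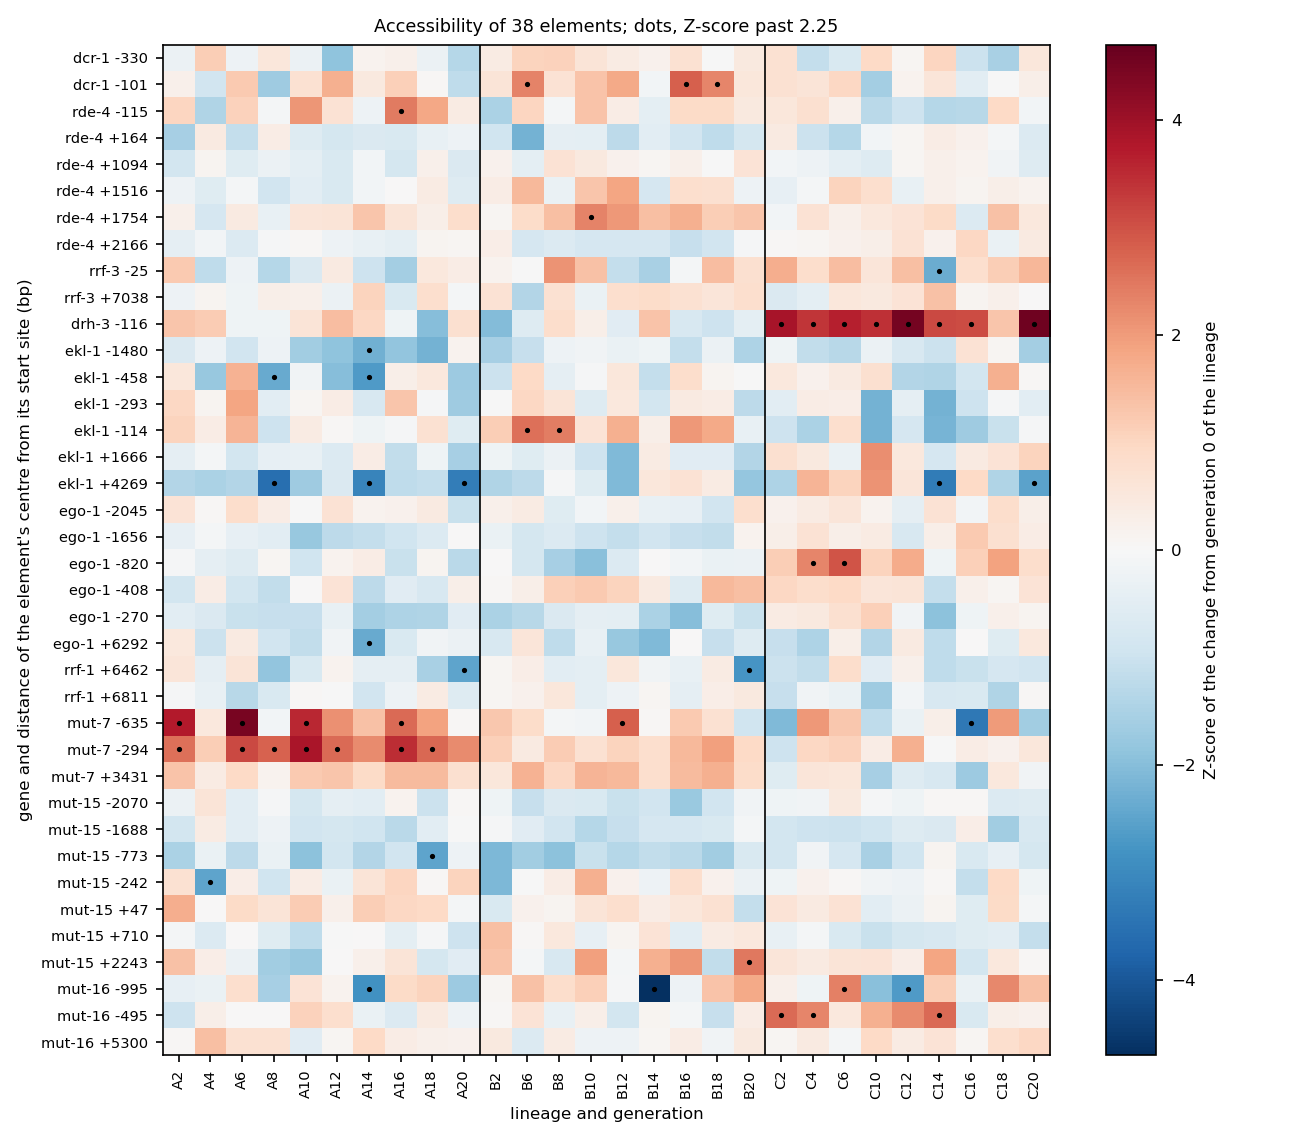
Z-scores of accessibility for the 38 elements (rows, named by gene and by the distance of the element's centre from its start site in bp) in the 28 later libraries (columns, by lineage and generation), from blue for lower to red for higher than generation 0, with dots on the called values. The rows drh-3 -116 in lineage C and mut-7 -294 in lineage A are red in most columns, and the row ego-1 +6292 is also the element upstream of rrf-1.

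Relations of mRNA with 22G-RNAs and with summed accessibility were computed over matched later libraries, 28 and 27, after the lineage mean was subtracted. None of the 20 relations passed after adjustment over the 20 (permutation of generations within lineages, two-sided). The strongest were those of mRNA with 22G-RNA for mut-16 (r = -0.452, rho = -0.530, permutation p = 0.0370, adjusted p = 0.370) and mut-7 (r = -0.427, rho = -0.482, permutation p = 0.0205, adjusted p = 0.370). Without the 2 libraries farthest from the median of the 22G-RNA level, r was -0.296 for mut-16 and -0.274 for mut-7. By Spearman's rho the smallest adjusted p over all libraries was 0.122 (permutation test), for mut-16 and mut-7 with 22G-RNA. In alternative fits the smallest was 0.0288 without lineage B and 0.0414 without the 5 libraries low in long transcripts (permutation test). Which relations passed in those fits is not given here. For accessibility the strongest was that of rrf-1, with r = 0.366 (permutation p = 0.141).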

How the data were processed

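Per the methods of the study, Bowtie2 placed RNA and ATAC reads on WS252, and BEDTools gave the reads over each gene or regulatory element. Small RNAs were placed on ce11 by Bowtie without mismatches, and 22G-RNAs antisense to a gene were summed. Element coordinates are printed as deposited. Versions are not given in the sources used here. The deposited signal values are read counts that the authors divided by DESeq2 size factors. Whole reads were recovered in all 93 libraries within 0.001 read, and values of 1 in RNA-seq and ATAC-seq are counts of 0. Transcript lengths and gene names come from Ensembl release 115.

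Values were tested as log2(value + 1) over features with a mean of at least 10 by limma 3.58.1 (trend, robust, Benjamini-Hochberg at 0.05 over all features), with lineage as a block, which the labels give. Fold changes of low features are understated on this scale. Counting error falls with depth and covers reads only. edgeR 4.0.16 and DESeq2 1.42.0 were run on the recovered reads. Simulated data were used to test the fits. Alternatives were pseudocounts of 0.5 and 5, no filter, TMM scaling, no block, generations 4 to 20, each lineage left out, and the 2 chosen after seeing the data. Named genes are the 10, up to 3 each way per pathway list, the 5 most alike, and elements nearest a start or past a threshold. The mut-15, mut-7, drh-3 and ego-1 elements were otherwise named after their values were seen. The 10 genes and the lists were chosen with earlier results of these data known. Fits ran in R 4.3.3 and permutations in Python 3.11.15 (scipy 1.17.1, pandas 2.3.3, numpy 2.4.6).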

Additional observations from a re-analysis of the deposited data

Results flagged for a closer look

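At 1 element, and for none of the 10 mRNAs or 22G-RNAs, every later library of one lineage lay above its own generation 0 and every later library of another lay below. At this element, chrI:7657083-7657233, whose centre is 820 bp upstream of the ego-1 start, every later library of lineage C was above C0 and every later library of lineage B was below B0. The mean log2 change was 0.71 in lineage C, -0.31 in lineage B and 0.02 in lineage A. The difference between lineages in this change was not tested. The share of all elements that meet the same rule is not given here, so whether this element is unusual cannot be told. C0 had 34.4 normalised counts, the lowest of the 31 libraries, and B0 had 77.4.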

How the results depend on the processing

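Of the comparisons, the number of the 10 mRNAs called between later generations and generation 0 was 4 with no lineage block and under the other pseudocounts, filter, scaling, tools and generations, and 6 without lineage C (range 4 to 6 over the lineages left out). It was 7 without the 5 libraries low in long transcripts and 10 with their balance as a covariate, both chosen after seeing the data. With or without the lineage block, no slope was called for mRNA, 22G-RNA or accessibility (0 of 10, 0 of 10 and 0 of 38). For accessibility, DESeq2 called 2 elements in later generations against generation 0, where limma and edgeR called 0. The mRNA Z-score calls were 2 at a limit of 2, 0 at 3, 10 with a pseudocount of 5, 3 against the mean of the generation 0 libraries, 0 without the 5 libraries and 0 to 1 with a lineage left out. The 22G-RNA calls were 1 with a pseudocount of 5. The accessibility calls were 80 at a limit of 2, 20 at 3 and 29 to 42 with a lineage left out. No called value reversed. Relations were at 0 of 20 by Pearson's r under every alternative run. By Spearman's rho the smallest adjusted p was under 0.05 without lineage B and without the 5 libraries (permutation test). Over all features, calls in later generations against generation 0 ran from 3725 to 8238 for mRNA (6626 by limma), from 13 to 163 for 22G-RNA (76) and from 0 to 344 for accessibility (0). Slope calls ran from 0 to 211 for mRNA (4), 4 to 34 for 22G-RNA (18) and 0 to 36 for accessibility (1). Lineage calls ran from 2 to 48 for mRNA (9) and 56 to 721 for 22G-RNA (562), the lowest without lineage C. The causes were not tested. The 3 generation 0 libraries limit the precision of every comparison with generation 0, and without the 5 libraries only A0 and B0 remain for mRNA. The small RNA library A4 holds 106897 antisense 22G-RNA reads.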
